A study of Homo sapiens with 96 samples.

Results

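The very long protein-coding genes were the coding genes with a deposited length above 400000 bp in the table of LINC00704 knockdown in asynchronous cells. They numbered 443 of the 12214 coding genes, or 3.63%, and of the 14746 genes in that table. RNA came from hTERT-RPE1 cells, an established human retinal pigment epithelial line made immortal with telomerase. Synchronised cells had been held with 400 uM mimosine, a plant amino acid that blocks entry into DNA synthesis, for 22 h. Nascent and input RNA of whole cells and of nuclei were sequenced in asynchronous cells and in windows labelled T0-2, T2-4, T4-6, T6-8 and T8-10, with 2 libraries per group. Knockdown of the long non-coding RNA LINC00704, LUCAT1 or MIAT with LNA GapmeRs, antisense oligonucleotides that direct cleavage of an RNA, was measured at points labelled S0, S2, S4 and S6, with 2 libraries per group. The same knockdowns in asynchronous cells had 3 libraries each against 2 controls. The sample records list 130 to 150 pmol of LNA for the control libraries as for the knockdowns, in both settings. The 3 synchronised knockdowns share 8 control libraries and the 3 asynchronous ones share 2, so similar changes across knockdowns are not independent of each other. The labels give no unit for the window and point numbers nor say if the libraries of a group were grown separately. The p-values therefore describe only the spread between libraries, which may be technical. In such bulk samples a change in the share of cells at a stage cannot be told apart from a change in RNA per cell.

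Very long genes are mostly intron. RNA polymerase II needs hours to cross them, so their transcripts are sensitive to early termination, to loss of elongation factors and to the arrival of a replication fork while transcription is under way. Several lie at common fragile sites, which are late-replicating regions that break under replication stress, and many encode adhesion, scaffold, channel and matrix proteins with their main roles in nerve and muscle.

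The deposited length was the whole span of the gene and ran from 400481 to 2304638 bp with a median of 568335 bp. There were 253 genes of up to 600000 bp, 129 between that and 1000000 bp, 61 longer than 1000000 bp and 6 longer than 2000000 bp. CNTNAP2, a neuronal adhesion gene at chromosome 7, 146116801 to 148420998 in RefSeq on GRCh38.p14, was the longest. It was followed by PTPRD, DMD, DLG2 and CSMD1. Of the 441 genes matched to RefSeq, 341 had a deposited length within 5% of the RefSeq span and 19 had a length over 2 times it. Among those 19, PSG6 was deposited at 477524 bp against a RefSeq span of 15809 bp and CLDN11 at 441516 bp against 15824 bp, so their RPKM values can include reads of neighbours and are uncertain. The genes just inside the limit were BMPR1B at 400481 bp, ANKFN1 at 400702 bp and PIK3C2G at 400803 bp. Those just outside it were HECW2 at 399323 bp, TNIK at 399070 bp and DTNA at 398555 bp.

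Promoter windows of 300 bases, from 250 before to 50 after an annotated start in RefSeq, were present for 358 of the 443 long genes and for 9268 other coding genes. A window was called CpG-rich at a GC content of at least 50% and an observed to expected CpG ratio of at least 0.6, and the window with most CpG was taken where a gene had several. Of the long genes 278, or 77.7%, were CpG-rich, against 85.9% of other coding genes. Among long genes of at least 0.05 RPKM the share was 84.0%, and among those under 0.01 RPKM it was 74.0%. The other coding genes gave 87.6% and 69.3% at the same levels. The 250 bases before an annotated start are shown for 3 long genes whose nuclear RNA differed between windows or from asynchronous cells, with each CG dinucleotide in capitals. DOCK4 (GRCh38.p14, chr7:112206400-112206649, minus strand) and KDM4C (chr9:6757723-6757972, plus strand) held 24 and 21 CG, and ABCA13 (chr7:48171208-48171457, plus strand) held 2. All are written 5′ to 3′.
DOCK4: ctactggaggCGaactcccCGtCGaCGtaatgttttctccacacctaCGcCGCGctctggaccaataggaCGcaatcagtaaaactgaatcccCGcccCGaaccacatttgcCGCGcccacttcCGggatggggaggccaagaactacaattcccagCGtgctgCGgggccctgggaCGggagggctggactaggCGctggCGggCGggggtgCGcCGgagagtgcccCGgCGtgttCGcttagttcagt
KDM4C: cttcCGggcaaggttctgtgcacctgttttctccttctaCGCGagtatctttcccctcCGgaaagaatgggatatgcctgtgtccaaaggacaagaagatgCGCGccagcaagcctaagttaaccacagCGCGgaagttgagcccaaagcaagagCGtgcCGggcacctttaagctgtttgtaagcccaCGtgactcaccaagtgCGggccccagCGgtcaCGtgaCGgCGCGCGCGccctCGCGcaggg
ABCA13: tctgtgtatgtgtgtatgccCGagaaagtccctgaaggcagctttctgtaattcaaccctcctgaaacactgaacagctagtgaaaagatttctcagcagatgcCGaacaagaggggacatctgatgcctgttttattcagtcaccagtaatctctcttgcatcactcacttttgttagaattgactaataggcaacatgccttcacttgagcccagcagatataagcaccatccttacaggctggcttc

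The long genes were at lower levels than other coding genes in this line. In the table that holds the rule, the median RPKM (reads per kilobase of gene per 1000000 reads) of its 5 libraries was 0.0393 for the 443 long genes and 0.954 for the other coding genes. Of the long genes 162, or 36.6%, averaged under 0.01 RPKM, against 1.89% of the others, and 10, or 2.26%, reached 1 RPKM, against 48.7%. A group of 212 long genes averaged at least 0.05 RPKM and is called expressed below, beside 10774 other coding genes at that level. Of the 5 longest genes, DMD averaged 0.0162 RPKM and the others 0.00182 to 0.00509 RPKM. The 212 were chosen in the libraries of LINC00704 knockdown in asynchronous cells and its controls, which that comparison also uses. The LUCAT1 and MIAT knockdowns in asynchronous cells share these controls. The expressed group and the classes of mean RPKM are therefore not independent of the LUCAT1 and MIAT comparisons in asynchronous cells either.

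The long genes with most nascent RNA in asynchronous nuclei encode cytoskeletal linkers, matrix and signalling proteins. DST, which links intermediate filaments to adhesion sites, averaged 6.51 RPKM, and MACF1, which links actin to microtubules, 6.08 RPKM. SPOCK1, a matrix proteoglycan, averaged 4.3 RPKM, KCNMA1, a calcium-activated potassium channel, 3.77 RPKM, and DLC1, a tumour suppressor gene, 3.10 RPKM. ROR1, PRKCA and APBB2 followed with 2.42, 2.21 and 2.16 RPKM. By function list, 24 of 34 transcription and chromatin genes were expressed. Only 13 of 40 adhesion and axon guidance genes and 8 of 40 channels and receptors were, while 21 and 23 of these averaged under 0.01 RPKM. Of the 32 genes listed at common fragile sites 13 were expressed, led in nuclear nascent RNA by LPP at 1.71, DPYD at 1.59 and FOXP1 at 1.21 RPKM.

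Expressed long genes had higher values in nuclear than in whole-cell tables. The ratio of asynchronous nuclear input to whole-cell input had a median of 1.77 over 212 expressed long genes (quartiles 1.40 and 2.42) and was above 1 for 189 of them. Over 10616 expressed other coding genes the median was 0.937, and 45.8% were above 1. For nascent RNA the nuclear to whole-cell ratio had a median of 1.38 in long genes and 0.847 in the others. The tables were scaled separately and each mean rests on 2 libraries, so these ratios were not tested.

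Reads over genes per library, in units of 1000000, ran from 6.39 to 28.6 for the fractions and synchronised knockdowns and from 26.4 to 50.5 for the asynchronous knockdowns. The targeted RNA was lower in each knockdown library than in each control library of its table, for all 3 targets in both settings. In control asynchronous cells the keratin KRT18 averaged 67.6 RPKM, KRT8 11.7 and vimentin 93.7, and the eye-field factor OTX2 2.36. The differentiated pigment markers TYR, LRAT and PMEL were at 0.0222, 0.0223 and 0.0865 RPKM. MITF, SERPINF1 and BEST1, listed with these pigment epithelium genes, were higher, at 0.535, 0.239 and 0.128 RPKM. The endothelial marker PECAM1 was at 0.0245 and the neuronal marker RBFOX3 at 0.00433 RPKM. SYT1, listed with them as a marker of other cell types and itself an expressed long gene, was higher, at 0.308 RPKM.

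Genes that were near silent in asynchronous cells carried a low signal that differed between fraction libraries. In whole-cell nascent RNA the median of the 162 near-silent long genes was 0.165 and 0.193 RPKM in the 2 asynchronous libraries and ran from 0.0154 to 0.236 over the 10 window libraries. In the second T2-4 library it was 0.236 RPKM, where the 222 near-silent shorter coding genes had a median of 0.242 RPKM. In the first T8-10 library the values were 0.0154 and 0.0175 RPKM. Whole-cell input ran from 0.00352 to 0.254 RPKM, with its highest value in the second T6-8 library. Nuclear nascent RNA ran from 0.0230 to 0.121 RPKM and nuclear input from 0.00624 to 0.0264 RPKM. The median of near-silent long genes was at least 0.868 times that of near-silent shorter genes in the nascent libraries, and as low as 0.668 and 0.641 times it in whole-cell and nuclear input. In the synchronised knockdown tables the same median was at most 0.0137 RPKM. What this signal is was not tested.

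**Figure D1:**
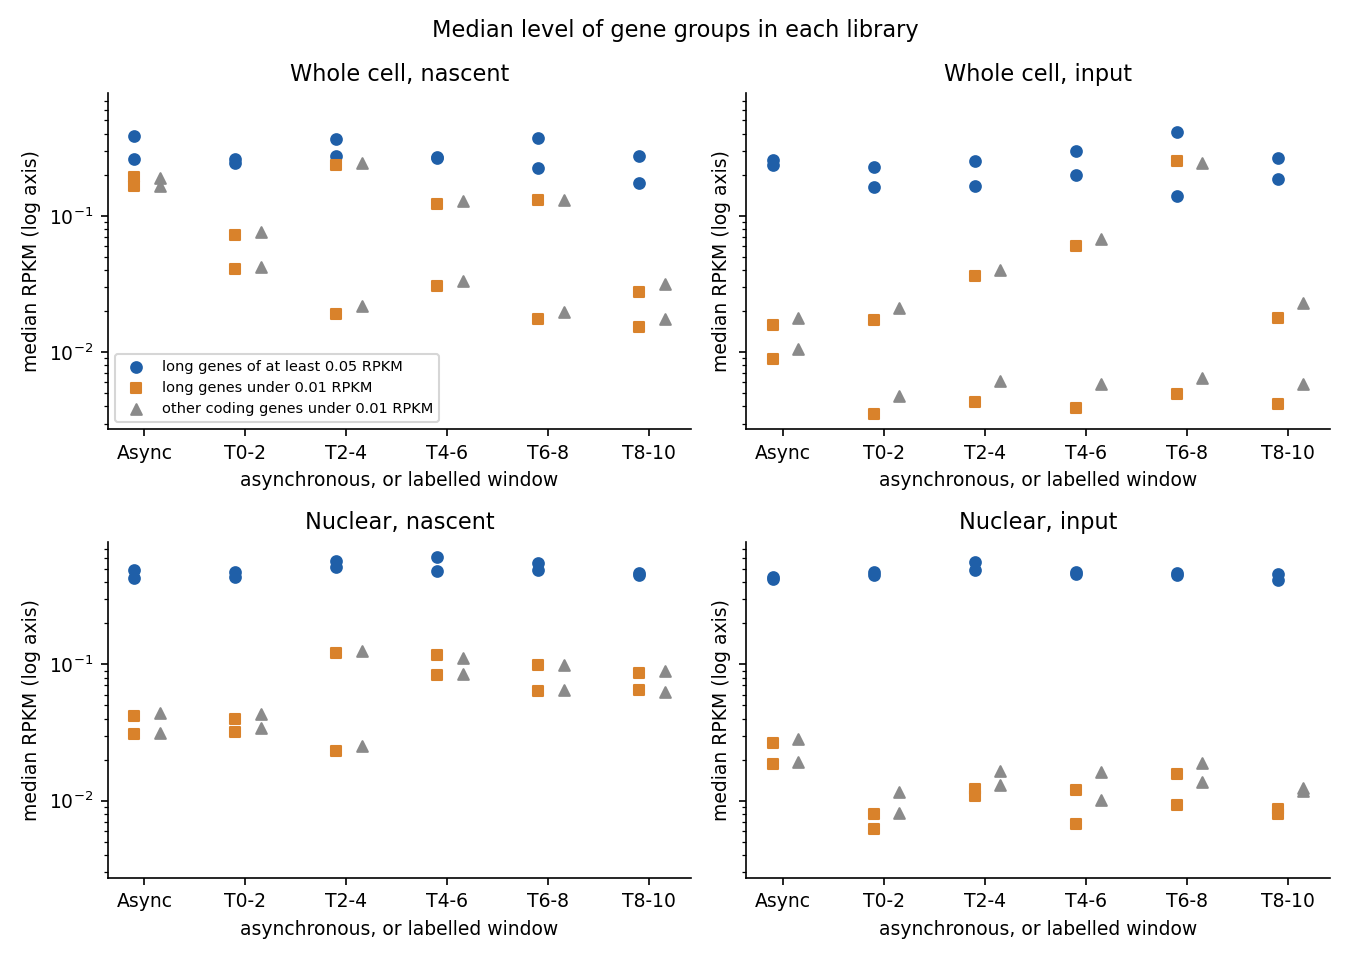
Median RPKM (log axis) in each library of the 4 fraction tables for the 212 expressed long genes (circles), 162 near-silent long genes (squares) and 222 near-silent other coding genes (triangles), by asynchronous cells or labelled window, 2 libraries per group. The squares and triangles move together between libraries, and in whole-cell nascent RNA they reach 0.236 and 0.242 RPKM, close to the circles.

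In whole-cell nascent RNA the median log2 difference, windows minus asynchronous, was -0.89 for 441 long genes and -0.09 for 12372 other coding genes. None of the long genes passed the test in either direction (0% of 15498 genes tested passed in either), and 108 long genes had an unadjusted limma p under 0.05. The median was -1.91 in long genes under 0.01 RPKM and -1.69 in other coding genes of that level. At 0.2 RPKM or more it was -0.12 in long genes and 0.04 in the others. After the near-silent signal of each library was subtracted, the median of long genes minus that of other coding genes changed from -0.81 to 0.24, and 4 long genes passed. In whole-cell input none of 416 long genes passed (0.0266% of 15051 genes passed upwards and 0% downwards), with 17 at an unadjusted limma p under 0.05.

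In nuclear nascent RNA 42 of 442 long genes rose in the windows and 2 fell (3.26% of 15290 genes rose and 1.91% fell). The other coding genes had 356 rises, or 2.90%, and 278 falls, or 2.27%. The near-silent signal also differed between these libraries. Its median was 0.0308 and 0.0421 RPKM in the asynchronous libraries and 0.0743 over the window libraries, and the median log2 difference by level was 0.85 in long genes and 0.80 in other genes under 0.01 RPKM. At 0.2 RPKM or more it was 0.07 and -0.04. By group the near-silent median averaged 0.03644 RPKM in asynchronous cells, 0.03555 in T0-2, 0.1002 in T4-6 and 0.07545 in T8-10. In these 3 windows 19, 37 and 5 long genes rose against asynchronous cells and 5, 1 and 0 fell. Of 15290 genes 318, 350 and 99 rose and 242, 116 and 23 fell. The part of the near-silent signal in the rises was not tested. With that signal subtracted 20 long genes rose and 3 fell, and among the 212 expressed long genes, without subtraction, 22 rose and 2 fell. Of 10652 expressed other coding genes, without subtraction, 289 rose and 278 fell. Counts of all genes are not given for the subtraction or for the refits without a library. Those counts therefore do not show if long genes changed more than others. Without the second T2-4 library, which had the lowest near-silent signal, 210 rose and 4 fell. Without the first or the second asynchronous library 10 and 7 rose and none fell.

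**Figure D2:**
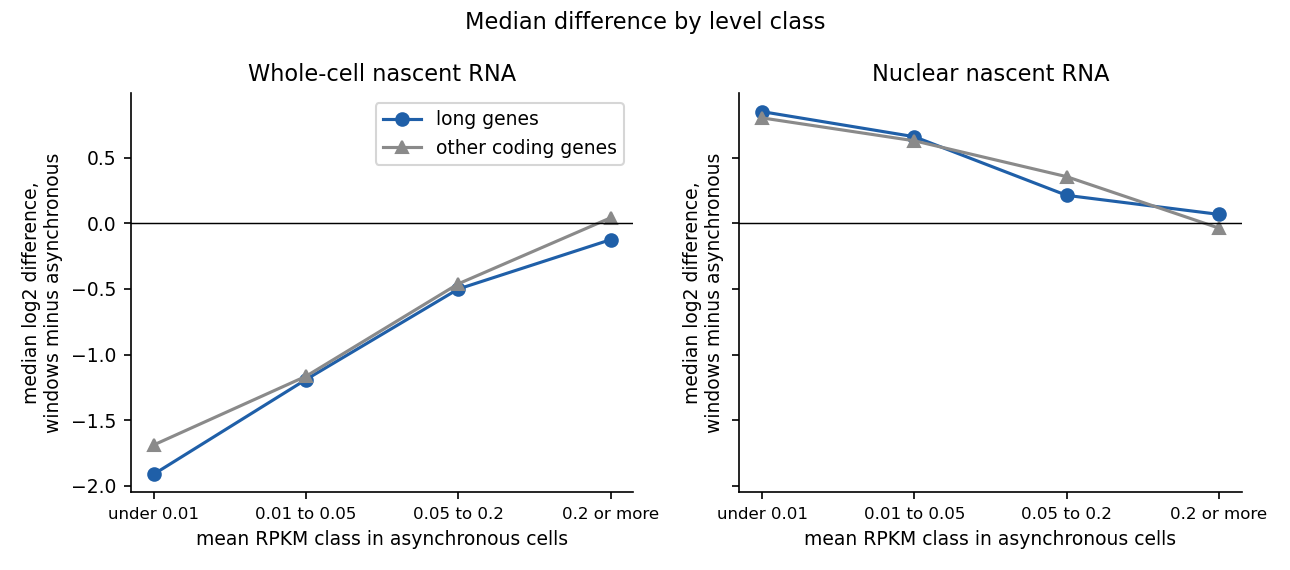
Median log2 difference, windows minus asynchronous cells, of long genes (circles) and other coding genes (triangles) in 4 classes of mean RPKM, for whole-cell and nuclear nascent RNA. Both lines leave zero at low level, to -1.91 and -1.69 in whole cells and to 0.85 and 0.80 in nuclei, and end near zero at 0.2 RPKM or more.

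ABCA13, an ABC transporter gene, had 0.0985 and 0.121 RPKM of nuclear nascent RNA in asynchronous cells and 0.311 to 0.654 RPKM, median 0.405, over the 10 window libraries. Its log2 difference was 1.93 (SE 0.18, limma adjusted p = 2.92e-05), and no window library overlapped the asynchronous ones. Its lowest window value was above the highest near-silent median of 0.121 RPKM, but a median over genes does not bound that signal in a single gene. The part of the near-silent signal in the rise of ABCA13 was not tested. In nuclear input it rose by 1.75 (SE 0.18, adjusted p = 0.00195). CSMD3, a large complement-domain membrane gene, had a mean of 0.0431 RPKM in asynchronous cells and 0.124 to 0.291 RPKM in windows, a rise of 2.20 (SE 0.22, adjusted p = 5.71e-05). With an asynchronous mean under the 0.05 RPKM minimum, CSMD3 entered the test with the help of window libraries, where it was high. The same may hold for PLCL1, MSR1 and other genes of low level named below. PIK3C2G, a class II phosphoinositide kinase, rose by 1.55 (SE 0.23, adjusted p = 0.00131) in nascent RNA and by 1.88 (SE 0.21, adjusted p = 0.0024) in input. LSAMP, a neuronal adhesion gene, and PLCL1, a phospholipase C-like protein, rose by 1.63 and 1.46 in nascent RNA. PSG6 had the largest rise, 2.38, but its deposited length covers neighbouring genes. MSR1, whose deposited length of 459613 bp also exceeds its RefSeq span of 84771 bp, and IL1RAPL1, a synaptic receptor at a fragile site, rose by 1.41 and 1.34.

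The 2 falls were in genes of higher level. DLC1 had 2.55 and 3.66 RPKM in asynchronous nuclei and 1.18 to 2.23 in windows, a log2 difference of -0.86 (SE 0.22, limma adjusted p = 0.0341). CACNA2D1, an auxiliary calcium channel subunit, had a mean of 1.32 RPKM and 0.666 to 0.965 in windows, a difference of -0.77 (SE 0.17, adjusted p = 0.0146). In both genes all 10 window libraries lay below both asynchronous libraries.

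In nuclear input 13 of 272 long genes rose and 1 fell (2.71% of 13538 genes rose and 2.13% fell). Besides those named, the rises included DOCK2 and DOCK4, exchange factors for Rac, by 1.30 and 0.93, SUGCT, a mitochondrial transferase, by 1.09, and KCNS3, a modifier subunit of potassium channels with a deposited length of 483770 bp against a RefSeq span of 55112 bp, by 0.93. KCNQ5, a potassium channel, fell by 0.87 on the log2 scale (SE 0.18, adjusted p = 0.0281), from 1.94 and 1.57 RPKM to 0.696 to 1.42 RPKM. In whole-cell input, where no long gene passed, DOCK4 had the opposite direction, with a difference of -0.88 (SE 0.22, limma adjusted p = 0.3405). ABCA13 and KCNQ5 kept their direction there, at 1.57 and -1.35 (limma adjusted p = 0.1655 and 0.222). Replicate numbers paired the nuclear input libraries, and with the number as a block 65 long genes rose and 42 fell, among 4632 genes called in all. Without the first or the second asynchronous library, and without the block, 1 and 4 long genes passed.

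Between the earliest and the latest window long genes differed in both directions. In nuclear nascent RNA 5 of 442 long genes were higher in T8-10 than in T0-2 and 8 were lower (0.661% of 15290 genes were higher and 0.831% lower), and in nuclear input 0 of 272 were higher and 5 lower (0.34% of 13538 genes were higher and 0.288% lower). With the replicate block the nuclear input counts were 48 and 46. No long gene passed in nuclear input without any 1 of the 4 libraries. In nuclear nascent RNA 2 and 0 passed without the first and second T0-2 library, and 25 and 0 without the first and second T8-10 library. With quantile normalization the nascent counts were 8 higher and 5 lower.

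DOCK4 had 0.883 and 1.44 RPKM of nuclear nascent RNA in T0-2, 0.672 and 0.941 in T2-4, 0.544 and 0.915 in T4-6, 0.479 and 0.598 in T6-8 and 0.348 and 0.444 in T8-10. Both T0-2 libraries lay above both T8-10 libraries, whose range is close to that of asynchronous cells at 0.321 and 0.530 RPKM. The log2 difference of T8-10 from T0-2 was -1.52 (SE 0.33, limma adjusted p = 0.0386) and -1.48 (SE 0.23, adjusted p = 0.0406) in nuclear input. SIPA1L1, a GTPase-activating protein for Rap, had 1.80 and 1.84 RPKM in T0-2 and 0.812 and 0.846 in T8-10, a difference of -1.13 (SE 0.25, adjusted p = 0.0410). ARHGAP26 had 0.958 and 0.875 RPKM in T0-2 and 0.418 and 0.432 in T8-10, a difference of -1.11 (SE 0.22, adjusted p = 0.0318). Both were also lower in input RNA of nuclei, with differences of -1.13 and -1.16 (adjusted p = 0.0406 and 0.0412).

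KDM4C, a histone H3 lysine demethylase, was high in T0-2 alone, with 0.441 and 0.400 RPKM of nuclear nascent RNA against 0.127 to 0.178 RPKM in the other 8 window libraries and 0.122 and 0.119 in asynchronous cells. Its log2 difference was -1.42 (SE 0.24, adjusted p = 0.0154), and -1.58 (SE 0.26, adjusted p = 0.0406) in nuclear input. HDAC9, a histone deacetylase, MDGA2 and SEMA3A, an adhesion and a guidance gene, and RIMS2, a synaptic scaffold gene, were also lower, with differences of -1.09, -1.38, -1.03 and -0.98. PLCL1 was lower in nuclear input, with a difference of -2.06 (SE 0.24, adjusted p = 0.0124).

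Of 34 transcription and chromatin genes tested, 3 were higher in T8-10 than in T0-2, and 2, KDM4C and HDAC9, were lower (0.661% and 0.831% of all genes tested). NFIA, a nuclear factor I gene, had 0.160 and 0.130 RPKM in T0-2 and 0.291 to 0.413 in the other window libraries, and was higher in T8-10 by 1.45 (SE 0.22, limma adjusted p = 0.0117). RORA, a nuclear receptor gene at a fragile site, rose by 1.61 (SE 0.29, adjusted p = 0.0188) and SUPT3H, a subunit of the SAGA complex, by 0.93 (SE 0.20, adjusted p = 0.0403). THSD7A, an endothelial guidance gene, had 0.0766 and 0.0459 RPKM in T0-2 and 0.214 and 0.222 in T8-10, a rise of 1.86 (SE 0.29, adjusted p = 0.0118). DISC1, a neuronal scaffold gene, rose by 1.17. Deposited and RefSeq spans of NFIA differ, at 597535 and 385562 bp.

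Over the 212 expressed long genes the median log2 difference of T8-10 from T0-2 in nuclear nascent RNA was 0.05, against 0.25 in the expressed other coding genes. By length it was 0.49 under 10 kb, 0.33 at 10 to 50 kb, 0.12 at 50 to 100 kb and 0.01 at 100 to 200 kb. Over all long genes tested the median was 0.54 against 0.31, so the order reversed when near-silent genes were left out.

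**Figure D3:**
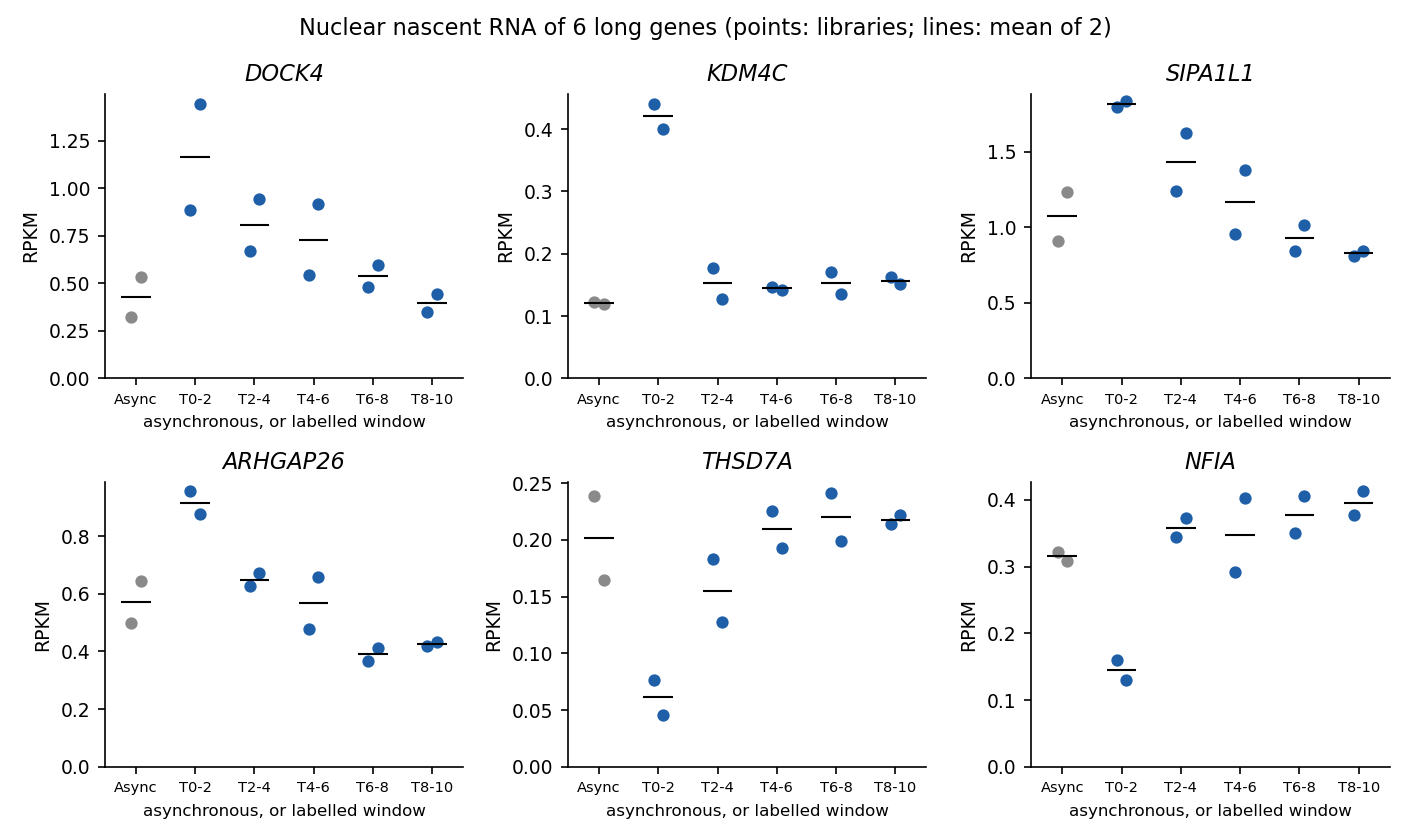
RPKM of nuclear nascent RNA for DOCK4, KDM4C, SIPA1L1, ARHGAP26, THSD7A and NFIA in asynchronous cells (grey) and 5 labelled windows (blue), 2 libraries per group with the mean as a line. KDM4C is high in T0-2 alone, DOCK4, SIPA1L1 and ARHGAP26 are highest there, and THSD7A and NFIA are lowest there.

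In whole cells no long gene passed between these windows, in nascent RNA (0% of 15498 genes passed in either direction; 8 long genes at an unadjusted limma p under 0.05) or in input (0% of 15051; 6 long genes). DOCK4 had the smallest p in nascent RNA, with a difference of -1.12 (SE 0.30, adjusted p = 0.638), and KDM4C was next at -1.04 (SE 0.35, adjusted p = 0.855). In control cells at points S6 and S0 none of 250 long genes passed (0.173% of 13289 genes passed upwards and 0.0527% downwards; 26 long genes at an unadjusted p under 0.05). MDGA2 and KDM4C had the smallest p there, with differences of -1.84 (SE 0.41, limma adjusted p = 0.0799) and -1.89 (SE 0.47, adjusted p = 0.129). KDM4C had 0.275 and 0.198 RPKM in control S0 and 0.0583 and 0.0658 in control S6. The median of long genes minus that of other coding genes from S0 to S6 was -0.28. Without the first control S0 library it was 0.10, and without the second it was -0.71.

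After LUCAT1 knockdown in synchronised cells more long genes fell than rose. At S0, S2, S4 and S6 alone 0, 0, 1 and 0 long genes passed, of 34, 58, 54 and 19 genes in all. With these points averaged at equal weight, 20 of 241 long genes rose and 39 fell (23.2% of 13916 genes rose and 7.21% fell), or 8.30% and 16.2%. Of other coding genes 23.2% rose and 7.65% fell. The median log2 difference was -0.11 in long genes and 0.16 in the others. Among expressed genes by length it was -0.05 under 10 kb, 0.18 at 10 to 50 kb, 0.21 at 50 to 100 kb, 0.19 at 100 to 200 kb, 0.06 at 200 to 400 kb, -0.06 at 400 to 600 kb and -0.21 at 600 to 1000 kb, so the shortest class lay near that of 400 to 600 kb. Leaving out 1 library at a time, the number of long genes called ran from 36 to 72, with 36 without the first control S6 library, 36 without the first S2 knockdown library and 38 without the first S4 knockdown library. Knockdown libraries of synchronised cells are numbered here in column order.

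CACNA1C, the pore subunit of an L-type calcium channel, had 0.0608 to 0.105 RPKM, median 0.0794, in 8 control libraries and 0.0257 to 0.0468, median 0.0321, in 8 LUCAT1 knockdown libraries. It fell by 1.20 on the log2 scale (SE 0.14, limma adjusted p = 7.21e-05), and the groups did not overlap. All its knockdown libraries lay under the 0.05 RPKM minimum, so CACNA1C entered the test only through controls. PLCB4, a phospholipase C, had 0.499 to 1.28 RPKM in controls and 0.272 to 0.446 after knockdown, also without overlap, and fell by 0.99 (SE 0.17, adjusted p = 0.00104). GPC6, a glypican, MSI2, an RNA-binding regulator of translation, and MAGI1, a junction scaffold gene, fell by 1.01, 0.83 and 0.81, with overlapping groups. Of 18 listed adhesion and axon guidance genes tested 9 fell and none rose, where 23.2% of all 13916 genes rose and 7.21% fell. Among the falls were TENM4, LSAMP, NLGN1 and PCDH7, and the list's median was -0.38. The list left out the cadherin CDH23 and the claudin CLDN11, which rose by 1.45 and 0.70. Of 8 scaffold and polarity genes LPP, MAGI1 and SHANK2 fell, of 10 channels and receptors CACNA1C and KCNMA1 fell, and of 12 matrix genes 4 fell and 2 rose. MYRIP, which links melanosomes and granules to myosin, fell by 0.87.

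Among the genes that rose, DOCK4 had 0.179 to 0.390 RPKM, median 0.291, in controls and 0.389 to 0.941, median 0.539, after LUCAT1 knockdown. The lowest knockdown and the highest control library were almost equal, and the rise was 1.07 (SE 0.17, limma adjusted p = 0.000783). PDZD2, a multi-PDZ protein gene, had 0.0058 to 0.0236 RPKM in controls and 0.0253 to 0.0880 after knockdown, a rise of 1.71 (SE 0.31, adjusted p = 0.00159). All its controls lay under the 0.05 RPKM minimum, so PDZD2 entered the test only through knockdown libraries. CDH23, a cadherin of hair cells, rose by 1.45 (SE 0.26, adjusted p = 0.00139). It did not reach the minimum with LINC00704 knockdown, which shares these controls. CDH23 therefore entered the test with the help of LUCAT1 knockdown libraries, and its call rests in part on the filter. BCAS3, CCDC91, STAG1, a cohesin subunit, LAMA2, a laminin chain, and CLDN11, a claudin of uncertain length, rose by 1.00, 0.85, 0.84, 0.70 and 0.70.

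In asynchronous cells LUCAT1 knockdown raised 2 of 224 long genes and lowered 2 (2.3% of 14062 genes rose and 0.398% fell). The FDR deposited by the authors, under 0.05, called many more. It gave 179 of 442 long genes higher and 109 lower (4503 and 2650 of 16052 genes). CDH23 had 0.0192 and 0.0214 RPKM in controls and 0.115, 0.0546 and 0.101 after knockdown, a rise of 2.02 (SE 0.34, limma adjusted p = 0.0371), and BCAS3 rose by 1.13 (SE 0.18, adjusted p = 0.0306). CDH23 entered the test only through knockdown libraries, since its controls lay under the 0.05 RPKM minimum. At 0.01 to 0.05 RPKM the median was 0.31 in 12 long genes and 1.19 in 300 other coding genes. TENM4, a teneurin, had 0.298 and 0.275 RPKM in controls and 0.124, 0.122 and 0.132 after knockdown, a difference of -1.18 (SE 0.18, adjusted p = 0.0270). MAGI1 fell by 1.04 (SE 0.18, adjusted p = 0.0388). PLCB4 and CACNA1C gave -1.81 and -1.22 without passing (adjusted p = 0.0534 and 0.116). The median was -0.34 in long genes and -0.04 in other coding genes. With no RPKM minimum the difference between these medians turned from -0.30 to 0.16. Without the first knockdown library, where the expressed long genes had a median of 0.254 RPKM against 0.184 and 0.163 RPKM in the other knockdown libraries, 147 long genes passed, and without any other 1 library none did. The near-silent median was 0.0169 RPKM in the third knockdown library and at most 0.00408 RPKM in the others.

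Long genes called after MIAT knockdown were mostly higher. In synchronised cells 20 of 244 long genes rose and 1 fell (8.61% of 13593 genes rose and 3.21% fell), and 183 of the 244 had a positive difference against 47.8% of other coding genes. The share that rose was 8.20%, near that of all genes. The medians were 0.18 and -0.02, with the points averaged at equal weight as for the counts. At S0, S2, S4 and S6 alone 0, 0, 0 and 1 long genes passed, of 16, 21, 9 and 422 genes in all. By length the median of expressed genes went from -0.20 under 10 kb to 0.09 at 100 to 200 kb, 0.16 at 200 to 400 kb and 0.20 above 400 kb. The count called ran from 5 to 39 as 1 library at a time was left out, with 39 without the first control S0 library. It was 8 without the second control S0 library, 13 and 9 without the first and second control S2, 11 without the first control S4, 11 and 9 without the first and second control S6, 5 without the first S0 knockdown and 7 without the first S2 knockdown library.

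PDZD2 had 0.0058 to 0.0236 RPKM in controls and 0.0228 to 0.125, median 0.0702, after MIAT knockdown, a rise of 2.09 (SE 0.37, limma adjusted p = 0.0015). ESR1, the oestrogen receptor alpha gene, had 0.0135 to 0.0355 RPKM in controls and 0.0287 to 0.0726 after knockdown, a rise of 0.93 (SE 0.18, adjusted p = 0.00336). PDZD2 and ESR1 entered the test only through knockdown libraries, since all their controls lay under the 0.05 RPKM minimum. ALK, a receptor tyrosine kinase gene, rose by 1.48, MDGA2 by 0.85 and LAMA2 by 0.84. ALK did not reach the minimum with LINC00704 or LUCAT1 knockdown, which share these controls. It too entered the test with the help of MIAT knockdown libraries. TIAM2, an exchange factor for Rac, rose by 0.86, BCAS3 by 0.92 and CLDN11 by 1.00. PCDH7, a protocadherin, fell from 0.156 to 0.310 RPKM, median 0.226, to 0.105 to 0.210, median 0.139, a difference of -0.61 (SE 0.16, adjusted p = 0.0187).

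In asynchronous cells 64 of 228 long genes rose after MIAT knockdown and 20 fell (20.4% of 13570 genes rose and 26.5% fell). Of other coding genes 17.7% rose and 29.7% fell. DGKI, a diacylglycerol kinase, had 0.205 and 0.198 RPKM in controls and 0.587, 0.718 and 0.666 after knockdown, a rise of 1.69 (SE 0.10, limma adjusted p = 6.7e-07). PDZD2 rose by 2.03, CDH23 by 1.40, PIK3C2G by 1.20, MDGA2 by 1.15, CLDN11 by 1.05, ESR1 by 0.99 and HDAC9 by 0.92. Genes of low level could enter the test only through libraries where they were high. At 0.01 to 0.05 RPKM 7 of 16 long genes rose and 0 fell. The median there was 0.26 in long genes and 1.24 in 192 other coding genes. PALLD, an actin-bundling protein gene, had 0.485 and 0.480 RPKM in controls and 0.322, 0.325 and 0.328 after knockdown, a difference of -0.57 (SE 0.09, adjusted p = 0.000387). HMCN1, a matrix hemicentin, CAMK1D, a calmodulin-dependent kinase, and MAD1L1, a spindle checkpoint gene, fell by 0.54, 0.52 and 0.48, and TIAM1, PCDH7, SLC39A11 and SLIT3 by 0.39, 0.39, 0.39 and 0.38. Of 15 trafficking, mitochondrial and lysosomal genes 6 rose and 1 fell, and of 15 fragile-site genes 5 rose and 1 fell. Without the first or the second control library 39 and 53 long genes were called, and with quantile normalization 105 rose and 4 fell.

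LINC00704 knockdown called few long genes. In synchronised cells none of 250 passed (0% of 13289 genes passed upwards and 0.00753% downwards), with 38 at an unadjusted limma p under 0.05. Without the second S0 knockdown library 24 passed. SPIDR, a homologous recombination scaffold gene, PCDH7 and DOCK4 had the smallest p, with differences of -0.79, -0.54 and 0.64 (adjusted p = 0.222 each). In asynchronous cells 0 of 218 rose and 1 fell (0.261% of 13051 genes rose and 0.0919% fell). That gene was PCDH7, with 0.127 and 0.116 RPKM in controls and 0.0479, 0.0461 and 0.0505 after knockdown, a difference of -1.31 (SE 0.18, adjusted p = 0.0348). Its knockdown values lay near the 0.05 RPKM minimum, so PCDH7 entered the test through its controls. SPIDR, THSD7A and SCFD2 gave -1.08, -1.31 and -1.32 without passing (adjusted p = 0.0538, 0.0538 and 0.0585). The FDR deposited by the authors, under 0.05, gave 26 of 443 long genes higher and 14 lower (821 and 272 of 14746 genes). The median was -0.25 in long genes and -0.06 in the others. With no RPKM minimum the difference between these medians turned from -0.19 to 0.066. Without the third knockdown library 14 long genes passed, and without any other 1 library none did.

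**Figure D4:**
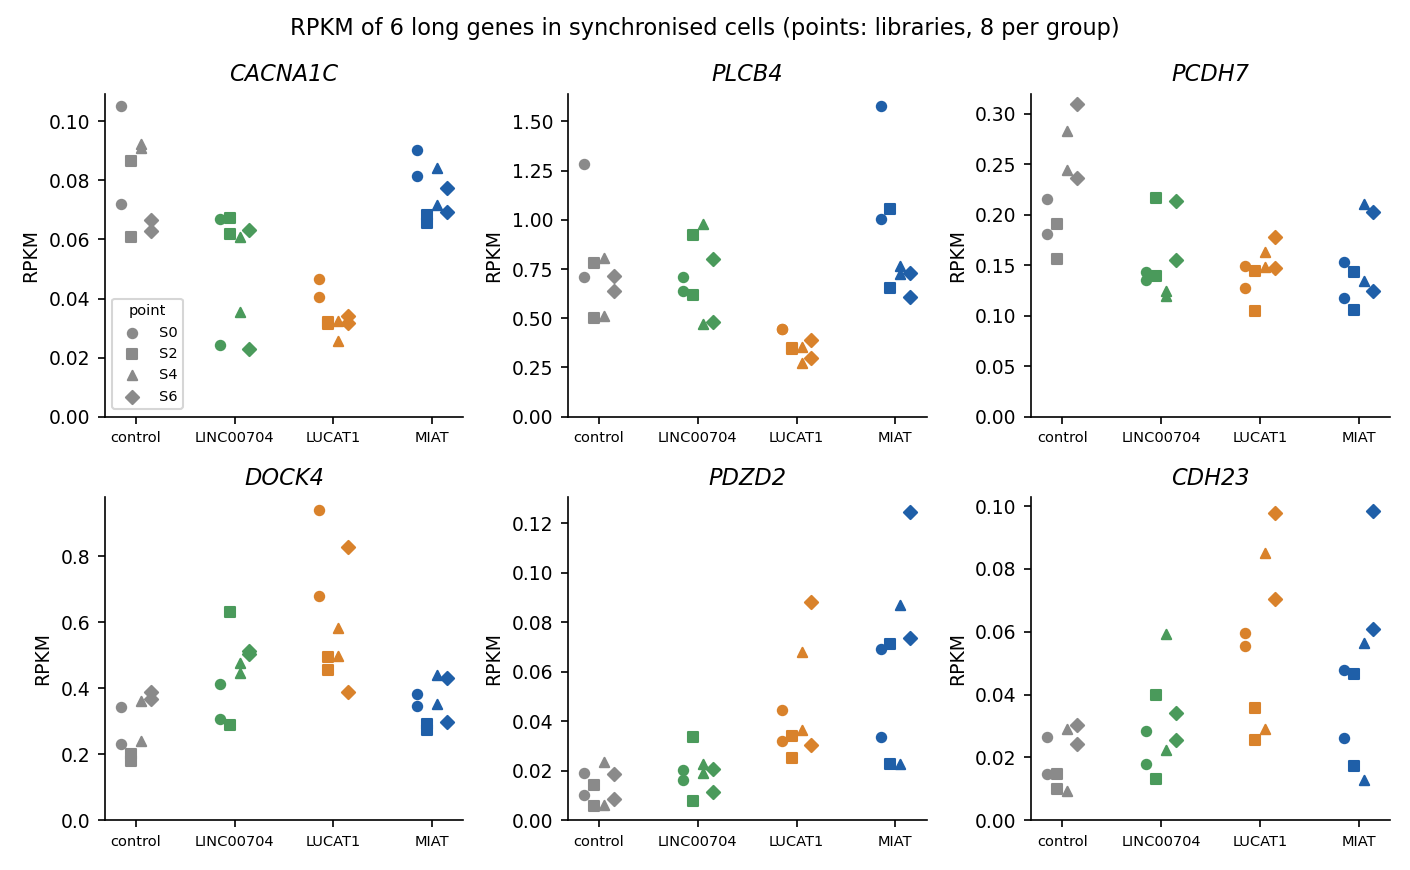
RPKM of CACNA1C, PLCB4, PCDH7, DOCK4, PDZD2 and CDH23 in synchronised cells, as points for 8 libraries per group with a marker for S0, S2, S4 or S6. Controls are plotted as scaled with LUCAT1 knockdown, and the LUCAT1 knockdown libraries lie below all controls for CACNA1C and PLCB4.

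Long genes also varied together between libraries of the same group. The median of the 212 expressed long genes ran from 0.155 to 0.342 RPKM over the 8 synchronised controls, where that of other coding genes ran from 0.917 to 1.03 RPKM. The highest value was in the first control S0 library and the lowest in the second control S2 library. The nuclear RNA NEAT1 was at 109.6 RPKM and MALAT1 at 527 RPKM in the former, against medians of 50.5 and 342 RPKM over the 8 controls. In the second control S2 library they were 48.9 and 198 RPKM. Other libraries differed from this order. The first control S6 library had a long-gene median of 0.243 RPKM with NEAT1 at 37.65, the lowest of the 8 controls, and MALAT1 at 365 RPKM. The second S6 library of MIAT knockdown had a long-gene median of 0.234 RPKM with NEAT1 at 64.4 and MALAT1 at 102 RPKM. In LUCAT1 knockdown the first and second S6 libraries had medians of 0.286 and 0.163 RPKM, with NEAT1 at 69.3 and 27.3 RPKM and MALAT1 at 384 and 240 RPKM. The part of nuclear RNA content in the knockdown results was not tested.

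**Figure D5:**
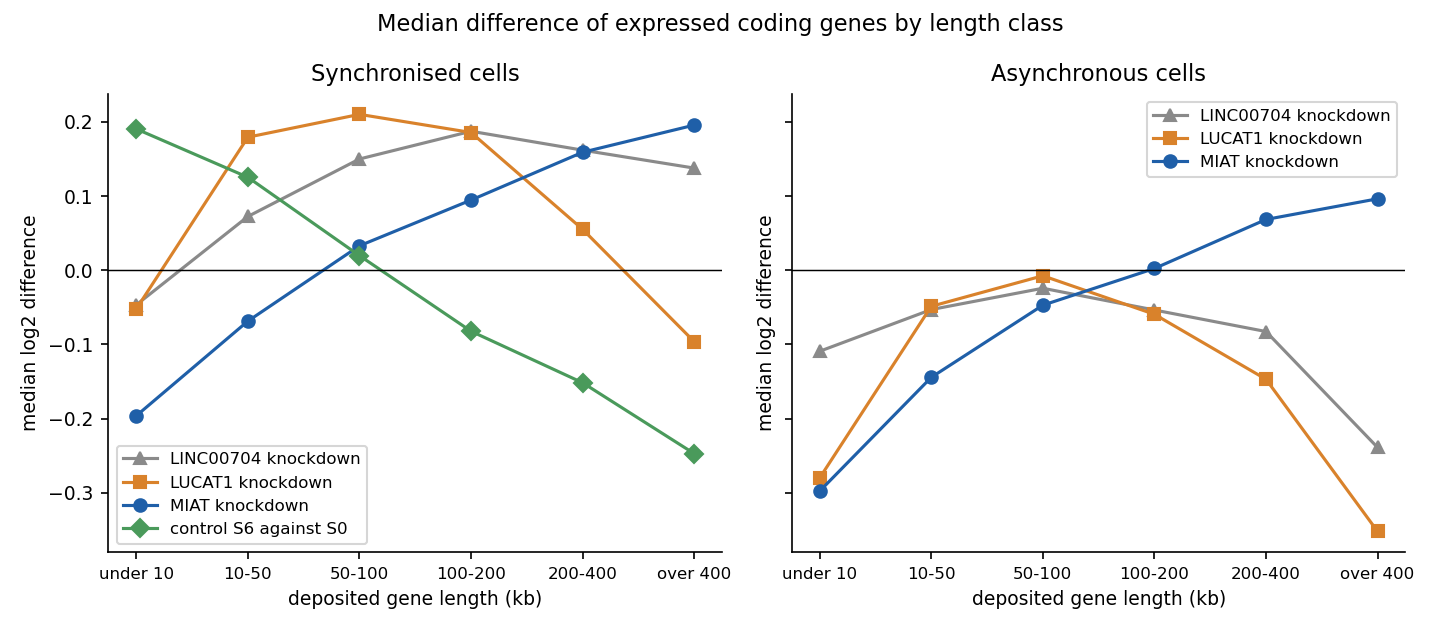
Median log2 difference of expressed coding genes in 6 classes of deposited length, for each knockdown against control and for control S6 against S0, in synchronised and asynchronous cells. Genes over 400 kb lie at 0.20 and 0.10 with MIAT knockdown and at -0.10 and -0.35 with LUCAT1 knockdown, in synchronised and asynchronous cells.

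Transcription elongation and RNA processing factors, a list of genes that are not long themselves, changed in both directions. Of 47 tested, 12 rose and 1 fell after LUCAT1 knockdown in synchronised cells, where 23.2% of all genes rose and 7.21% fell, so the number of rises is near that of all genes. They included rises of the cyclin T genes CCNT1 and CCNT2 and of CDC73, CTR9 and LEO1 of the PAF complex and a fall of PAF1. After MIAT knockdown in asynchronous cells 6 rose and 18 fell, where 20.4% of all genes rose and 26.5% fell. Among the falls were CDK9, SUPT5H, SUPT6H and POLR2A. The part of these factors in the values of long genes was not tested.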

How the data were processed

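The authors deposited RPKM values, with 1 column per library in 10 tables, and 91 of 96 samples had columns; 5 chromatin samples were not analysed here. STAR 2.5.3, featureCounts 1.6.1, edgeR, HOMER 4.10.3 and Bowtie2 2.3.4.3, and the build hg38, are named in the submitters' processing notes, which give no role or order. The log2 fold changes, p-values and FDR that the authors deposited for asynchronous knockdowns were not used for the calls here. At a deposited FDR under 0.05, 26, 179 and 142 long genes were higher and 14, 109 and 46 lower for LINC00704, LUCAT1 and MIAT. These were 9.03%, 65.2% and 45.9% of 443, 442 and 410 long genes, against 7.41%, 44.6% and 56.8% of all genes. Why the calls here are fewer was not tested. Gene lengths came from the asynchronous tables. In each library the 2000 lowest values of RPKM times length in kb were whole multiples of a common step (tolerance 0.05 of a read), and this step gave the reads over genes. Each table was fitted alone with limma 3.58.1 (R 4.3.3, eBayes with trend) on log2(RPKM times length in kb + 0.5), keeping genes of at least 1 CPM and 0.05 RPKM in 2 libraries. This pseudocount understates the change of low genes. Comparisons of windows with asynchronous cells averaged the windows with equal weight, and those of synchronised knockdowns with controls averaged the points likewise. The minimum ignored groups, so a gene under it in every library of a group could enter only through another group, where it was high. The call of such a gene rests in part on this filter. P-values were adjusted by Benjamini and Hochberg over all genes tested in a table, and called means adjusted p under 0.05. "Other coding genes" are coding genes of at most 400000 bp. Named genes were the called long genes with the largest differences, up to 8 per direction and comparison, or the 3 of smallest p, plus the highest, the longest and the leading genes of each function list; other genes named were chosen after their values were seen. The replicate numbers paired libraries in nuclear input only, where the correlations of deviations between groups ran from 0.567 to 0.844. Members and lists were chosen with earlier results of these data known. The results of a further function list are not reported here.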

Additional observations from a re-analysis of the deposited data

How the results depend on the processing

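The number of long genes called depended on how low values were treated. Counts of all genes under these settings and without single libraries are mostly not given, so the counts describe long genes alone. On log2(RPKM + 0.25) with a minimum of 0.5 RPKM it was 6 and 7 for windows in nuclear nascent and input RNA, 0 and 0 for T8-10 against T0-2 there, 14 and 0 for LUCAT1 and MIAT knockdown in synchronised cells, and 0, 0 and 10 for LINC00704, LUCAT1 and MIAT knockdown in asynchronous cells. With that minimum alone it was 17 and 8 for windows, 3 for T8-10 in nuclear input, 20 and 2 in synchronised cells and 0, 0 and 15 in asynchronous cells; fewer genes are tested under it. With no RPKM minimum it was 77 for windows in nuclear input and 2, 7 and 131 in asynchronous cells. A pseudocount of 2 CPM gave 0 for LINC00704 in asynchronous cells. Quantile normalization gave 1 for T8-10 in nuclear input and 0 for LUCAT1 in asynchronous cells. With the replicate block it was 1, 4, 70 and 107 for windows in whole-cell nascent, whole-cell input, nuclear nascent and nuclear input RNA, 22 and 94 for T8-10 in nuclei, 65 and 25 for LINC00704 and LUCAT1 in asynchronous cells and 10 for control S6 against S0. Outside nuclear input, where the lowest correlation was 0.567, libraries share only a number: the lowest correlations were -0.23, -0.34 and -0.22 in the other fraction tables. In the asynchronous knockdown tables the correlations were 0.21, 0.25 and 0.11 for LINC00704, LUCAT1 and MIAT, each from a single pair of groups with 2 shared numbers, too few to pair the libraries. Synchronised knockdowns could not be fitted with a block, since their column numbers differ from the labels.

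Subtracting the near-silent signal and keeping genes of at least 0.05 RPKM were chosen after seeing the data. Subtraction gave 4, 1, 23 and 24 for windows in whole-cell nascent, whole-cell input, nuclear nascent and nuclear input RNA and 2 for LINC00704 in asynchronous cells. The level limit gave 27 and 9 for windows in nuclei, 11 for MIAT in synchronised cells and 2 for LUCAT1 in asynchronous cells.

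The median of long genes minus that of other coding genes, on the log2 scale, was -0.81 for windows in whole-cell nascent RNA and became -0.030 on log2(RPKM + 0.25), -0.029 with the 0.5 RPKM minimum and 0.24 after subtraction. In nuclear nascent RNA 0.54 became 0.15, 0.18 and 0.16 under the same settings and 0.14 with the level limit, and in nuclear input 0.08 became -0.20 with no minimum. For T8-10 against T0-2 in nuclear nascent RNA 0.22 became -0.16, -0.20 and -0.22 under those settings, -0.20 with the level limit and 0.45 with quantile normalization. In asynchronous cells LINC00704 knockdown went from -0.19 to 0.066 with no minimum, -0.26 with the 0.5 RPKM minimum, -0.13 with quantile normalization and -0.27 with the replicate block, LUCAT1 knockdown from -0.30 to 0.16 with no minimum, and MIAT knockdown from 0.19 to 0.12 on log2(RPKM + 0.25) and 0.27 with quantile normalization. Control S6 against S0 went from -0.28 to -0.011 with no minimum. The causes were not tested.

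Leaving out 1 library at a time, calls ran from 7 to 214 and 1 to 16 for windows in nuclear nascent and input RNA, 0 to 25 and 0 to 0 for T8-10, 0 to 24, 36 to 72 and 5 to 39 for LINC00704, LUCAT1 and MIAT in synchronised cells and 0 to 14, 0 to 147 and 39 to 118 in asynchronous cells. The median differences ran from -1.06 to -0.62, -0.18 to 0.49, 0.36 to 0.62 and 0.003 to 0.20 for windows in the 4 fractions in the order above, and from -0.95 to -0.57, -0.36 to 0.57, 0.11 to 0.36 and -0.28 to -0.005 for T8-10. They ran from -0.03 to 0.14, -0.38 to -0.18 and 0.12 to 0.31 in synchronised cells, -0.27 to -0.15, -0.54 to -0.19 and 0.17 to 0.23 in asynchronous cells, and -0.71 to 0.10 for control S6 against S0. Of 83 results on named genes none reversed under the settings run, 18 of 83 lost their call with quantile normalization, 10 of the 20 tested lost it on log2(RPKM + 0.25) with the 0.5 RPKM minimum, and of the refits without 1 library 166 lost it and 625 kept it.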

Other observations

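Over all genes tested in nuclear windows, 3.26% rose and 1.91% fell in nascent RNA and 2.71% rose and 2.13% fell in input. Of the 40 adhesion and axon guidance genes tested in nuclear nascent RNA, LSAMP, NTM, OPCML, PCDH9 and SEMA5A rose in the windows and none fell (median log2 difference 0.77). Of 32 fragile-site genes IL1RAPL1, LRP1B, LSAMP and PDE4D rose (median 0.54), where the median of all 442 long genes tested was 0.61. Of 29 matrix genes CSMD3, LTBP1 and SPOCK3 rose, and CSMD3, LTBP1 and FBN2 rose in nuclear input. RUNX1, a transcription factor whose deposited length is longer than its RefSeq span, was higher in nuclear input by 0.87 (SE 0.17, limma adjusted p = 0.0214), and in nuclear nascent RNA the difference was 0.67 (SE 0.19, adjusted p = 0.0513). The 10 expressed genes over 1000 kb had a median of 0.25 after MIAT knockdown in asynchronous cells, where 4 rose, and of -0.68 after LUCAT1 knockdown, where none passed. In synchronised cells 9 such genes were tested, with a median of -0.015 after MIAT and -0.27 after LUCAT1 knockdown, where 0 and 1 passed.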
